A study of Mus musculus with 4 samples.

Results

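The genes described here are 10 members of the TGF-beta pathway, namely the ligands Tgfb1, Tgfb2, Tgfb3 and Inhba, the receptors Tgfbr1 and Tgfbr2, and the intracellular mediators Smad2, Smad3, Smad4 and Smad7. They were listed by name, with earlier results of these data known, and all 10 were found among the 34721 entries of the deposited expression table. Of these, 9 reached 1 FPKM in at least 1 line, as did 14165 entries in all, and Tgfb2 did not.

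The study sequenced RNA from 4 cultured mouse oral cancer cell lines, with 1 library per line. The tumors were raised in male C57BL/6 mice by applying the carcinogen 7,12-dimethylbenzanthracene to the buccal mucosa with a cotton swab, for longer in mouse 11 than in mouse 3. That difference in exposure and the mouse cannot be told apart. AOC3 and AOC11 were derived from the oral tumors of mouse 3 and mouse 11, and AOC3-LN and AOC11-LN from a metastatic lymph node of each. All lines passed through a flank tumor in a further mouse, were depleted of fibroblasts with a kit and were grown in medium with fetal bovine serum. There was no untreated or normal epithelial line, and each pair of lines stands for 1 animal. The spread between lines of a mouse is therefore the only error available, and it does not describe mice in general.

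TGF-beta ligands are secreted in a latent form held by binding proteins, and once released they bind the type II receptor Tgfbr2, which recruits and phosphorylates the type I receptor Tgfbr1. The activated receptor phosphorylates Smad2 and Smad3, which join the common partner Smad4 and enter the nucleus to induce or repress target genes. Smad7 is itself induced and inhibits the receptor, and Inhba encodes the subunit of activin A, a related ligand that reaches the same Smads through its own receptors. In squamous epithelium the pathway restrains growth, and in carcinomas it is also known for matrix production and invasion.

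The values are FPKM, fragments scaled to transcript length and to library size, which permit levels to be compared between genes. The table gives no read counts, and the spacing of its low values gave an estimated depth of 28300000 to 33900000 fragments per library, lowest in AOC3-LN. The lines expressed the markers of their epithelial label, with 8 of 8 at 1 FPKM or more in every line and a summed level of 3281 to 4034 FPKM. Single markers differed more than the sum. Krt5 was at 499 FPKM in AOC3 and 275 in AOC3-LN, against 4.99 in AOC11 and 17.0 in AOC11-LN. Krt14 was at 166, 150, 257 and 259 FPKM in the same order. None of 8 fibroblast markers reached 1 FPKM, and their sum was 0.246 FPKM in AOC3 and 0.323 in AOC3-LN, against 0.511 in AOC11 and 1.17 in AOC11-LN. Endothelial markers were likewise below 1 FPKM, 0 of 6 in each line, with sums of 0.251 to 0.392 FPKM. Of the 8 macrophage markers 2 or 3 exceeded 1 FPKM, with sums of 16.8 to 33.8 FPKM led by Cd68, Cd14 and, in the AOC11 lines, Csf1r. Csf1r was at 20.8 FPKM in AOC11 and 6.01 in AOC11-LN, against 0.995 in AOC3 and 0.435 in AOC3-LN. The pan-leukocyte marker Ptprc stayed at or below 0.0640 FPKM, and Adgre1 was listed at 0 in all lines. Among 6 T cell markers, Trac was the only one to reach 1 FPKM, at most 2.13, and Cd3e was listed at 0. Fewer cells of a type and less RNA per cell cannot be told apart in such bulk libraries.

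Among the TGF-beta ligands, nearly all transcript came from Tgfb1 (ENSMUSG00000002603.15, chr7:25687002-25705077 of mm10, plus strand). Its level was 20.4 FPKM in AOC3 and 14.0 in AOC3-LN, against 21.1 in AOC11 and 23.0 in AOC11-LN. AOC3-LN stood lowest and the other lines lay close together. Tgfb1 made up between 88.8% and 97.3% of the summed FPKM of Tgfb1, Tgfb2 and Tgfb3.

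Tgfb2 (ENSMUSG00000039239.14, chr1:186622792-186705989, minus strand) was at 0.775 FPKM in AOC3 and 0.142 in AOC3-LN, against 0.572 in AOC11 and 0.657 in AOC11-LN. These levels correspond to an estimated 129, 20, 95 and 106 fragments in the same order of lines. The gene stayed below the filter in all lines and was not tested.

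Tgfb3 (ENSMUSG00000021253.7, chr12:86056745-86079041, minus strand) was the most uneven member. It stood at 0.571 FPKM in AOC3 and 0.241 in AOC3-LN, against 0.0461 in AOC11 and 2.23 in AOC11-LN, which is an estimated 62, 22, 5 and 234 fragments. The highest and lowest lines, AOC11-LN and AOC11, came from the same mouse and differed 48.4-fold, and Tgfb3 passed the filter through AOC11-LN alone. Of its exon bases, 12.4% overlap genes on the opposite strand, Gm37804 and Gm48008, and the abundance was estimated with default parameters, which do not use strand, so fragments from these bases cannot be assigned. For Tgfb2 the share was 2.14%, with the antisense gene Gm29491.

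Inhba (ENSMUSG00000041324.14, chr13:16011851-16031621, plus strand) separated the lines by mouse. Its level was 14.1 FPKM in AOC3 and 17.6 in AOC3-LN, against 4.80 in AOC11 and 3.54 in AOC11-LN. Both AOC3 lines lay above both AOC11 lines. In AOC3-LN the Inhba level exceeded that of Tgfb1, with a ratio of 1.25, and in AOC11-LN the ratio was 0.154.

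Both receptors were also higher in the AOC3 lines. Tgfbr1 (ENSMUSG00000007613.15, chr4:47353222-47414931, plus strand), the type I kinase, was at 15.5 FPKM in AOC3 and 11.4 in AOC3-LN, against 7.96 in AOC11 and 6.50 in AOC11-LN. Tgfbr2 (ENSMUSG00000032440.13, chr9:116084293-116175360, minus strand), the ligand-binding type II kinase, was at 66.2, 57.1, 31.9 and 29.5 FPKM in the same order. The order of the lines was the same for the receptors, with each lymph node line just below the primary line of its mouse. The ratio of Tgfbr2 to Tgfbr1 FPKM stayed between 4.01 and 5.03.

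Smad3 (ENSMUSG00000032402.12, chr9:63646767-63757994, minus strand) followed the order of the receptors. It was at 61.4 FPKM in AOC3 and 46.4 in AOC3-LN, against 26.9 in AOC11 and 23.6 in AOC11-LN. Smad2 (ENSMUSG00000024563.16, chr18:76241580-76310963, plus strand), the other Smad that the activated receptor phosphorylates, was at 36.0, 41.4, 35.6 and 24.8 FPKM. The balance of the pair thus differed between the lines, with a ratio of Smad3 to Smad2 of 1.70 in AOC3 and 1.12 in AOC3-LN, against 0.757 in AOC11 and 0.951 in AOC11-LN.

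Smad4 (ENSMUSG00000024515.13, chr18:73639009-73703780, minus strand), the common partner, was at 55.9 FPKM in AOC3 and 61.1 in AOC3-LN, against 38.3 in AOC11 and 25.1 in AOC11-LN. Smad7 (ENSMUSG00000025880.11, chr18:75367529-75395935, plus strand), the inhibitor, ranged from 11.9 FPKM in AOC11-LN to 17.2 in AOC3-LN, with 16.6 in AOC3 and 14.5 in AOC11. For both genes, AOC3-LN was highest and AOC11-LN lowest. With 1 library per line, neighbouring levels in any of these orders have no spread of their own.

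**Figure D1:**
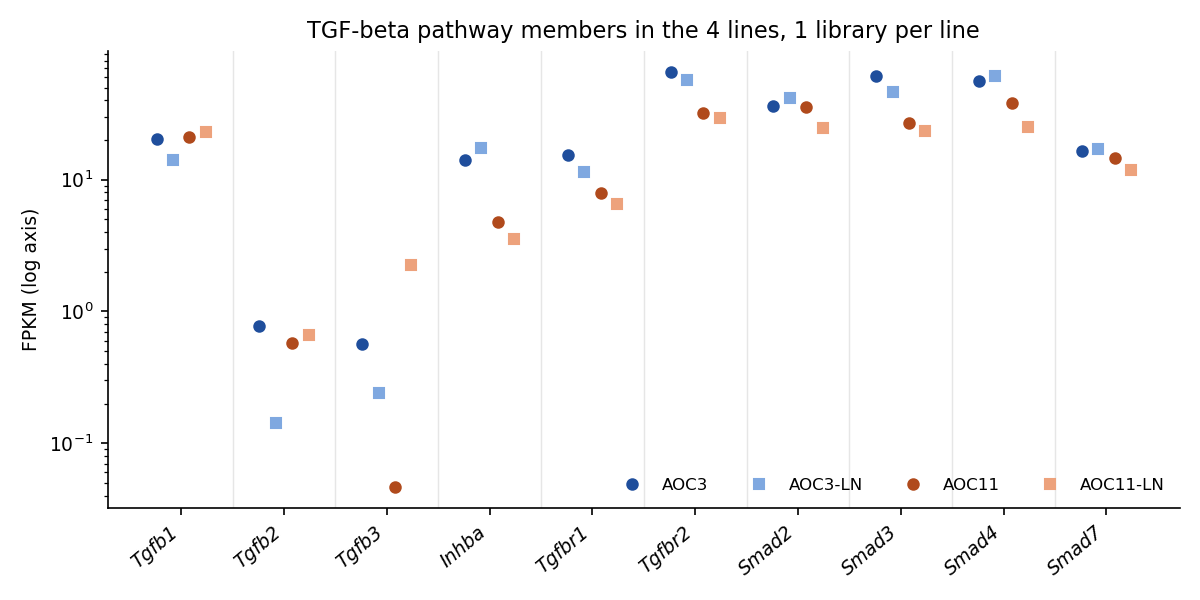
FPKM of each member in the 4 lines on a log axis, with 1 point per line and library and no error bar. Inhba, Tgfbr1, Tgfbr2, Smad3 and Smad4 lie higher in both AOC3 lines, and Tgfb3 reaches 2.23 FPKM in AOC11-LN against 0.0461 in AOC11.

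The lines of mouse 3 were next compared with those of mouse 11. For this, FPKM plus 1 was log2-transformed and quantile-normalized, and the difference between the means of both lines was taken. A difference above 1 or below -1, on this log2(FPKM + 1) scale, is called here. Of the 9 members tested, 3 were called higher in the AOC3 lines (Inhba, Tgfbr2 and Smad3) and 0 lower. Over all tested genes, 5.10% were called higher and 6.00% lower. For 7 of the 9 members both AOC3 lines lay above both AOC11 lines, a pattern found in 26.3% of all tested genes. Among them, Smad2, Smad4 and Smad7 lie close together on chromosome 18. Its other tested genes had a median difference of 0.37, with 23.4% below 0. Smad2 separated narrowly, at 36.0 FPKM in AOC3 against 35.6 in AOC11. For 0 members did both AOC11 lines lie above both AOC3 lines, where 26.7% of all tested genes did. The median difference of the 9 members was 0.87, against 0.01 over all tested genes.

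Inhba had the largest difference, 1.80 (SE 0.28, 95% interval 1.08 to 2.51), with a mean of 15.8 ± 2.47 FPKM (SD, n = 2 lines) in the AOC3 lines and 4.17 ± 0.892 FPKM in the AOC11 lines. Tgfbr2 differed by 1.04 (SE 0.18), with means of 61.6 ± 6.44 and 30.7 ± 1.73 FPKM. Smad3 differed by 1.13 (SE 0.22), with means of 53.9 ± 10.7 and 25.3 ± 2.39 FPKM. Each of these differences exceeded the spread between the lines of a mouse. Tgfbr1, at 0.87 (SE 0.24), and Smad4, at 0.94 (SE 0.25), lay just inside the threshold.

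The difference was 0.41 (SE 0.24) for Smad2 and 0.42 (SE 0.21) for Smad7, whose 95% intervals included 0. Tgfb1 differed by -0.28 (SE 0.23) and Tgfb3 by -0.32 (SE 0.54), and the AOC3 and AOC11 lines overlapped for these ligands. Leaving out a line moved these smaller values to different degrees. Smad7 stayed between 0.28 (without AOC11-LN) and 0.55 (without AOC11). Smad2 was at 0.16 without AOC11-LN and 0.67 without AOC11, and Tgfb1 at -0.06 without AOC3-LN and -0.51 without AOC3. Tgfb3 was at -0.18 without AOC3-LN and -1.05 without AOC11, and it turned to 0.38 without AOC11-LN, the line that took it past the filter. In limma across all 14165 tested genes with Benjamini-Hochberg adjustment, 0 of the 9 members had an adjusted p under 0.05, and 5 had an unadjusted p under 0.05. These were Inhba, Tgfbr1, Tgfbr2, Smad3 and Smad4. Over all genes, 0.205% passed the adjusted and 18.7% the unadjusted threshold. The limma adjusted p was 0.0943 for Inhba, 0.102 for Tgfbr2 and 0.119 for Smad3. When limma was fitted to protein-coding genes only, the adjusted p for Inhba was 0.0415 and the other members stayed above 0.05.

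Individual lines weighed on the count of members called. Without AOC3, Inhba alone was called, at 1.99, with Tgfbr2 at 0.92 and Smad3 at 0.91. Without AOC11, 6 members were called. Tgfbr1 at 1.01 and Smad4 at 1.24 were added as higher in the AOC3 lines, and Tgfb3 at -1.05 as lower. Tgfbr2 was at 0.99 without AOC11-LN and at 0.98 without quantile normalization. Over all genes, 1573 of 14165 were called either way with every line, 1956 of 13940 without AOC3 and 1934 of 14008 without AOC11.

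**Figure D2:**
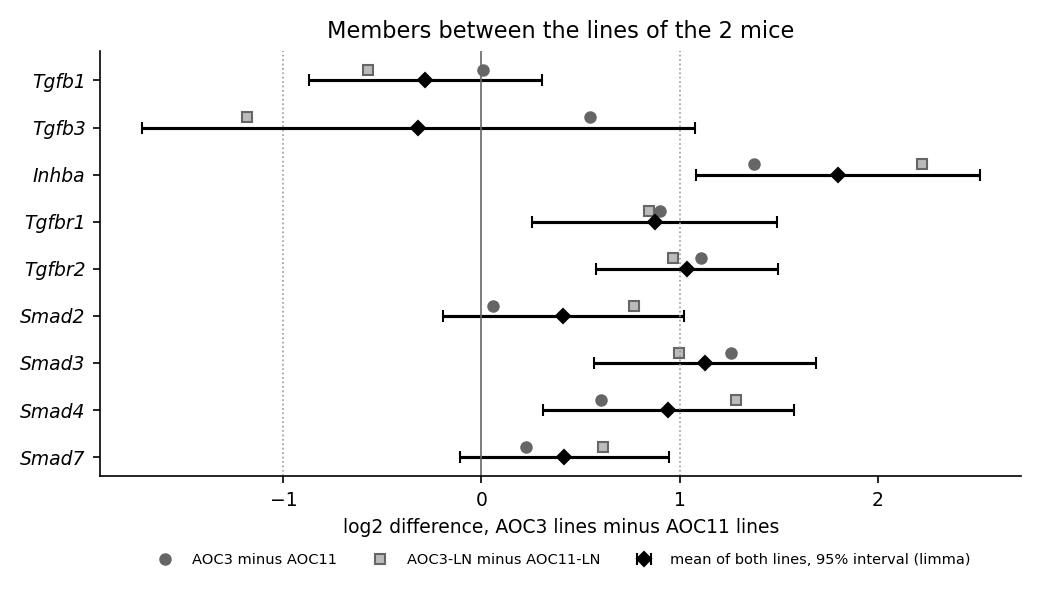
Log2 difference of each tested member, AOC3 lines minus AOC11 lines, on the log2(FPKM + 1) scale, with its 95% interval from limma. Inhba, Tgfbr2 and Smad3 lie above 1, and the intervals of Tgfb1, Tgfb3, Smad2 and Smad7 include 0.

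The promoters of the 3 called members and of Tgfbr1, the partner of Tgfbr2, are shown because these genes stood higher together in the AOC3 lines. The sequences are the 250 bases before the annotated start from RefSeq on GRCm38.p6, which is the mm10 assembly, read 5′ to 3′ on the gene's strand. The positions are chr13:16011601-16011850 for Inhba, chr4:47352972-47353221 for Tgfbr1, chr9:116175364-116175613 for Tgfbr2 and chr9:63757995-63758244 for Smad3. Capitals mark the Smad box CAGAC, the AP-1 motif TGANTCA, the GC box GGGCGG and the TATA motif TATAAA, searched on both strands.
Inhba: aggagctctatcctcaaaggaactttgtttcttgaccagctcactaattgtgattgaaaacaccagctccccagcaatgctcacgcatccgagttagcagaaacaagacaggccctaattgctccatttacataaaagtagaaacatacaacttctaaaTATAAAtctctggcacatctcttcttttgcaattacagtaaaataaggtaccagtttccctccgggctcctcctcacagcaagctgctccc
Tgfbr1: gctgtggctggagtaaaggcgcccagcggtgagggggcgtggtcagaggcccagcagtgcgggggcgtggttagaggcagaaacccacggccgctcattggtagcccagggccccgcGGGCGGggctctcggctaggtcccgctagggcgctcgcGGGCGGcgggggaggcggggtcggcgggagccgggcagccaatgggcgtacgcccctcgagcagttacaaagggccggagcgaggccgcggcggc
Tgfbr2: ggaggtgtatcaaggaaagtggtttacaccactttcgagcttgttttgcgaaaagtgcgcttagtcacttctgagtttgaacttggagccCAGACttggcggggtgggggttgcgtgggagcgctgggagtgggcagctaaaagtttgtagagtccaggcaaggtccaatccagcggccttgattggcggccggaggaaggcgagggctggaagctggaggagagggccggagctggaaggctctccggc
Smad3: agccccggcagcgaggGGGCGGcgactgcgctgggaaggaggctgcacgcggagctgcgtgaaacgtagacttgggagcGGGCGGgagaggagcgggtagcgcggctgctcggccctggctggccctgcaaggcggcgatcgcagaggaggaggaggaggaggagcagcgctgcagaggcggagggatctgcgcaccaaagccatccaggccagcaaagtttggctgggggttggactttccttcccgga

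The promoters held different motifs. Inhba held 1 TATA motif and no GC box, with 43.2% of its bases G or C, below the median of 52.4% over 32851 promoters of the table. Tgfbr1 and Smad3 each held 2 GC boxes, with 74.8% and 69.2% G or C, and Tgfbr2 held 1 Smad box at 58.4%. Of the members that did not stand higher in the AOC3 lines, Tgfb1 held 5 GC boxes at 75.2% G or C, and Tgfb2 held 2 Smad boxes and 1 TATA motif at 53.6%. Over all promoters of the same length, 42.2% held the Smad box, 6.75% the AP-1 motif, 32.7% the GC box and 12.4% the TATA motif. A match describes the letters of this window and is not a binding site. The table held no window for Tgfb3, and Smad2, Smad4 and Smad7 were not searched.

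Inhba had the widest range over the lines, 2.22 on the normalized log2 scale. The protein-coding genes with the nearest profile over the 4 lines, by the root mean square difference after centring, were Sgsm1 (0.0638), Tmem8 (0.0725), Pitpnc1 (0.108), Dpp7 (0.116) and Nrip1 (0.120), out of 11379 genes compared. Nrip1, which encodes a nuclear receptor corepressor, was at 10.9 FPKM in AOC3 and 11.8 in AOC3-LN, against 3.52 in AOC11 and 3.05 in AOC11-LN. Over 4 lines such likeness is a description.

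The lymph node line was then set against the primary line of each mouse, a comparison of 1 library with 1 library that has no replicate check. In mouse 3, 0 of 9 members were called, against 5.53% of all tested genes called in either direction. The shifts ran from -0.45 for Tgfb1 to 0.36 for Inhba, with a median of -0.24 against 0.02 over all genes. Tgfb1, Tgfb3, Tgfbr1, Tgfbr2 and Smad3 were lower in AOC3-LN, by -0.45, -0.27, -0.34, -0.24 and -0.43. Inhba, Smad2, Smad4 and Smad7 were higher, and the last 3 by 0.20, 0.09 and 0.11.

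In mouse 11, 1 of 9 members was called, where 8.11% of all tested genes were called in either direction. This was Tgfb3, at 1.46 on the log2(FPKM + 1) scale, which understates the change of a low gene. With a pseudocount of 0.1 the value was 3.71. Tgfb3 was among the tested members only through its level in AOC11-LN, and its level in AOC11 rests on an estimated 5 fragments. The summed fibroblast markers were also highest in AOC11-LN, at 1.17 FPKM against 0.511 in AOC11, led by Col1a1 at 0.407 FPKM, and their part in the Tgfb3 level was not tested.

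Tgfb1 shifted by 0.13 in AOC11-LN, and the other 7 tested members were lower there. Smad4 shifted by -0.59, Smad2 by -0.51, Inhba by -0.48, Tgfbr1 by -0.28, Smad7 by -0.28, Smad3 by -0.17 and Tgfbr2 by -0.10. The median over the members was -0.28, against -0.02 over all genes. Tgfbr1, Tgfbr2 and Smad3 were lower in both lymph node lines, as were 22.3% of all tested genes. The other 6 shifted in opposite directions in the mice, as did 51.9% of all tested genes. Tgfbr2 and Smad3 lie on chromosome 9, where 69.2% of other tested genes were below 0 in AOC3-LN and 40.7% in AOC11-LN.

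With the mouse as a block, limma compared the lymph node lines with the primary lines. Of the 9 members, 0 had an adjusted p under 0.05 and 0 an unadjusted p under 0.05, with a smallest limma adjusted p of 0.999. Of all genes, 0.0141% passed the adjusted threshold and 2.86% the unadjusted one. This fit rests on 1 pair of lines per mouse.

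**Figure D3:**
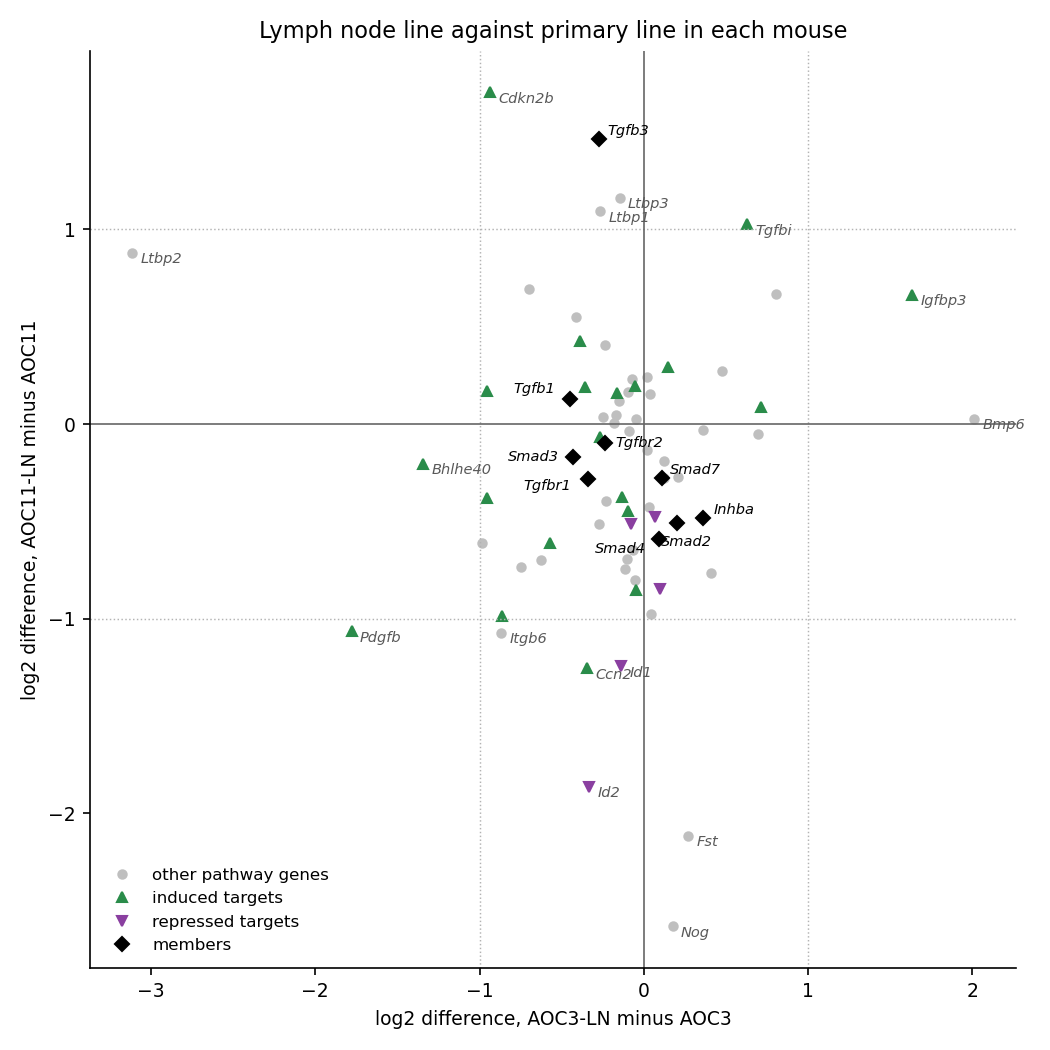
Shift of each member and other tested pathway genes from the primary to the lymph node line, mouse 3 on the horizontal and mouse 11 on the vertical axis, both on the log2(FPKM + 1) scale with dotted lines at 1 and -1. Members lie within 0.6 of 0 on both axes except Tgfb3 at 1.46 in mouse 11, and Pdgfb lies below -1 on both.

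The lower Smad levels in AOC11-LN were set beside their neighbours on the chromosome. Smad4, Smad7 and Smad2 lie in this order within 2.67 Mb of chromosome 18. Of 20 chromosomes, chromosome 18 had the lowest median shift in AOC11-LN, -0.45 over 368 other tested genes, of which 79.1% were below 0. Within 8 Mb of the start of Smad7, 68 of 77 other genes were below 0 in AOC11-LN with a median of -0.44, and 22 of 77 in AOC3-LN with a median of 0.12. The shifts of Smad2 and Smad7 lay within the quartiles of chromosome 18, -0.72 to -0.12, as did that of Smad4.

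Chromosome 18 also had the second highest median difference between the AOC3 and AOC11 lines, at 0.37. AOC11-LN enters this difference as well as the shift above, so they are not separate observations. Smad2 and Smad7 exceeded that median by 0.05 each and Smad4 by 0.58. A change of the whole chromosome and one of the Smad genes themselves cannot be told apart here. Around the members called between the mice, the median difference of the other genes within 5 Mb was -0.02 for Inhba, 0.15 for Tgfbr2 and 0.24 for Smad3, and it was 0.10 for Tgfbr1. Around Tgfb1 that median was -0.22, and the median shift there was 0.08 in AOC3-LN and 0.35 in AOC11-LN.

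**Figure D4:**
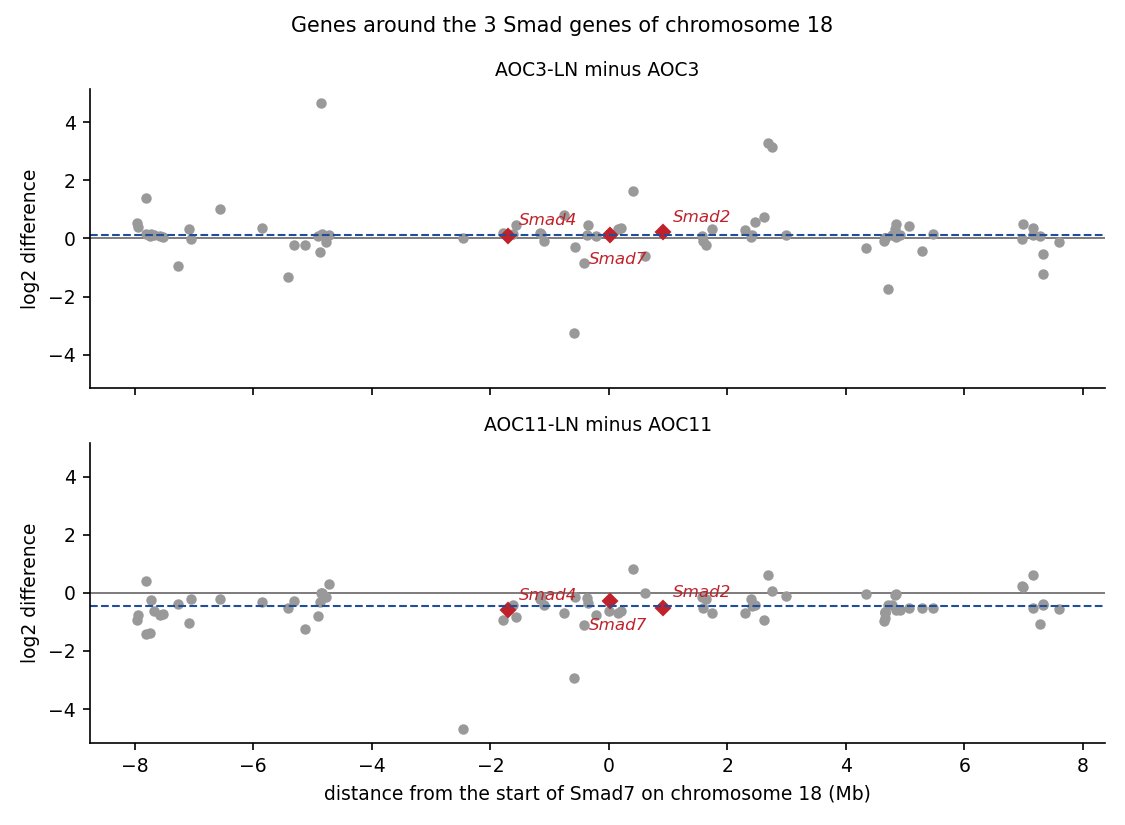
Shift of tested genes near Smad4, Smad7 and Smad2 on chromosome 18 against distance from the start of Smad7 in Mb, for both mice, on the log2(FPKM + 1) scale with 1 point per gene, the Smads in red and a dashed line at the median of the other genes, 0.12 and -0.44. In AOC11-LN 68 of 77 other genes lie below 0, and in AOC3-LN 22 of 77 do.

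The rest of the pathway was described through 8 lists of 98 genes, of which 66 passed the filter and 3 were listed at 0 in all lines. Between the AOC3 and AOC11 lines 9 were called higher and 4 lower, where 5.10% and 6.00% of all tested genes were, with a median of 0.05 against 0.01 over all genes. In limma with Benjamini-Hochberg adjustment, 0 of the 66 had an adjusted p under 0.05 and 16 had an unadjusted p under 0.05, where 18.7% of all tested genes did.

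Of 17 other ligands of the family, 6 were tested, 3 were called higher in the AOC3 lines and 1 lower. Over all tested genes the shares were 5.10% and 6.00%. Gdf15, a stress-induced ligand, was at 2.90 FPKM in AOC3 and 4.73 in AOC3-LN, against 0.0494 in AOC11 and 0.0252 in AOC11-LN, which differed by 2.22. Bmp6, a bone morphogenetic protein, was at 1.33, 7.61, 0.187 and 0.322 FPKM, a difference of 1.87 that was 0.88 without AOC3-LN. For Gdf11, an activin-like ligand, the levels were 7.76, 9.50, 3.29 and 3.69 FPKM and the difference 1.17, which was 0.98 without AOC3-LN.

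Inhbb, which encodes another activin subunit, was higher in the AOC11 lines. It was at 0.848 FPKM in AOC3 and 0.0947 in AOC3-LN, against 2.46 in AOC11 and 5.21 in AOC11-LN, a difference of -1.70. Both AOC11 lines lay above both AOC3 lines. Gdf15 and Bmp6 passed the filter through the AOC3 lines alone, and Inhbb through the AOC11 lines alone.

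Of 11 other receptors, 7 were tested and Acvr2b was called higher, where 5.10% of all tested genes were. This type II activin receptor was at 3.90, 5.23, 0.430 and 1.06 FPKM in AOC3, AOC3-LN, AOC11 and AOC11-LN, a difference of 1.76. Neither of the 2 tested Smads outside the members was called, and the 13 intracellular regulators, such as the ubiquitin ligase Smurf1 and the corepressor Tgif1, all stayed within the threshold with a median of 0.18.

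Among 8 tested genes of latency and activation, Ltbp1 was called higher, where 5.10% of all tested genes were. It encodes a binding protein that tethers latent TGF-beta to the matrix, and it was at 22.5 FPKM in AOC3 and 18.04 in AOC3-LN, against 1.02 in AOC11 and 4.06 in AOC11-LN, a difference of 2.75. None of the 4 tested extracellular antagonists was called between the mice.

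The induced targets did not follow a single direction between the mice. Of 21 tested, 4 were called higher in the AOC3 lines and 3 lower, with a median of -0.07. Over all tested genes the shares were 5.10% and 6.00%. Igfbp3, a binding protein of insulin-like growth factors, was at 21.4 FPKM in AOC3 and 68.5 in AOC3-LN, against 10.5 in AOC11 and 17.2 in AOC11-LN, a difference of 1.49 that was 0.66 without AOC3-LN. Acta2, smooth muscle actin, was at 0.0445, 0.00156, 5.79 and 6.97 FPKM, a difference of -2.81. Acta2 passed the filter through the AOC11 lines alone.

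Bhlhe40, a transcriptional repressor, was at 82.6 FPKM in AOC3 and 32.5 in AOC3-LN, against 153 in AOC11 and 140 in AOC11-LN, a difference of -1.43 that was -0.76 without AOC3-LN.

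Further called targets were named after their values were seen. Cdkn1a, a cell cycle inhibitor, differed by 1.30, which was 0.94 without AOC3-LN. The matrix gene Fn1 differed by 1.13, which was 0.70 without AOC11-LN. Col4a1, a basement membrane collagen, differed by 1.02, which was 0.96 without AOC3 and 0.81 without AOC11-LN. Of the 5 repressed targets, Myc, Id1, Id2, Id3 and Cdc25a, none was called, with a median of 0.35.

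**Figure D5:**
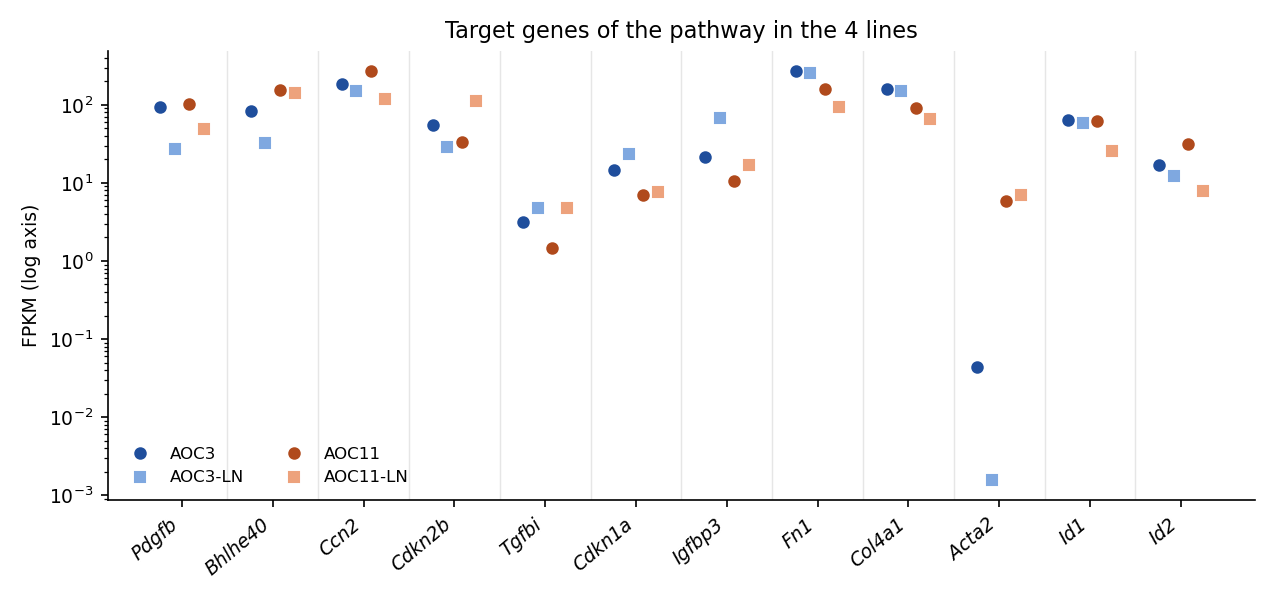
FPKM of 12 target genes called in at least 1 comparison in the 4 lines, on a log axis with 1 point per line and no error bar. Pdgfb is lower in both lymph node lines than in the primary line of the same mouse, and Acta2 lies below 0.1 FPKM in both AOC3 lines.

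The targets were also read from the primary to the lymph node line. In AOC3-LN, 17 of 21 induced targets were below 0, with a median of -0.34 against 0.02 over all genes. There 3 were called lower and 1 higher, where 3.42% and 2.11% of all tested genes were. In AOC11-LN 11 of 21 were below 0, with a median of -0.07 against -0.02 over all genes. There 3 were called lower and 2 higher, where 3.14% and 4.97% of all tested genes were. How many of all tested genes were below 0 in a single lymph node line was not counted.

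Pdgfb was called lower in both lymph node lines, as were 0.388% of all tested genes. This subunit of platelet-derived growth factor was at 94.9 FPKM in AOC3 and 26.8 in AOC3-LN, against 104 in AOC11 and 49.5 in AOC11-LN, with shifts of -1.78 and -1.06. Each shift compares 1 library with 1 library.

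Further targets were called in 1 mouse. In AOC3-LN the shift of Bhlhe40 was -1.34 and that of Igfbp3 was 1.63. In AOC11-LN, Cdkn2b, a cell cycle inhibitor, went from 33.4 to 112 FPKM, a shift of 1.70. Ccn2, a matricellular protein, went from 270 to 118 FPKM, a shift of -1.25, and Tgfbi, an adhesion protein of the matrix, from 1.48 to 4.84 FPKM, a shift of 1.03. Among the repressed targets, the differentiation inhibitors Id2 and Id1 shifted by -1.86 and -1.24 in AOC11-LN. All 5 of that list were below 0 there, with a median of -0.85 against -0.02 over all genes.

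Outside the targets, no gene of the lists was called in both lymph node lines. Such calls were rare over all tested genes too, at 0.388% lower and 0.254% higher in both. In AOC3-LN, Bmp6 was higher by 2.01 and Ltbp2, a relative of the latency proteins found on elastic fibres, was lower, from 19.7 to 1.24 FPKM, a shift of -3.11. In AOC11-LN, the latency genes Ltbp3 and Ltbp1 shifted by 1.16 and 1.09. Itgb6, a subunit of the integrin that activates latent TGF-beta, went from 21.4 to 9.67 FPKM, a shift of -1.07.

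Among the 66 pathway genes, antagonists had the largest shifts of mouse 11. Nog, which binds bone morphogenetic proteins, went from 9.21 FPKM in AOC11 to 0.862 in AOC11-LN, a shift of -2.58. Fst, which binds activins, went from 14.4 to 2.84 FPKM, a shift of -2.12. In AOC3 and AOC3-LN, Nog was at 3.99 and 4.08 FPKM and Fst at 3.53 and 3.91 FPKM, so that AOC11 stood highest for both genes. Over the 66 genes, 2 were called higher and 4 lower in AOC3-LN, and 4 higher and 8 lower in AOC11-LN. The shares over all tested genes were 2.11% and 3.42% in AOC3-LN and 4.97% and 3.14% in AOC11-LN.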

How the data were processed

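RNA of 4 cell lines was sequenced with 1 library per line from stranded poly(A) libraries. The authors trimmed reads with Trim Galore, mapped them to mm10 with TopHat2 and estimated FPKM with Cufflinks on GENCODE M21. They deposited FPKM without read counts, logarithm or quantile normalization. Depth was estimated from the spacing of low FPKM values, of which 63.7% to 66.8% lay within 0.1 of a whole multiple, too few to recover reads, so no count test was run. The depth of a level is therefore approximate.

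FPKM plus a pseudocount of 1 was brought to the log2 scale, and the 34721 entries of each line were quantile-normalized. Entries that reached 1 FPKM in any line were tested with limma 3.58.1 in R 4.3.3 (lmFit, eBayes with trend, Benjamini-Hochberg over 14165), a step tested on simulated data. Groups were taken from sample titles. Lines of a mouse stand in the place of replicates, so p-values measure only the spread between these lines.

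All members are named. Of each pathway list, genes past a log2 difference of 1 between the mice are named (where over 4, the 4 largest), and the 2 largest shifts of each mouse. Others are said to be named after their values were seen. The members and lists were chosen with earlier results of these data known. Alternatives were other pseudocounts, scalings, filters, thresholds, blocks, gene types and leaving out each line. Positions and overlaps came from GENCODE M21. Where a gene had 2 entries (Hgs, Junb), the higher was used. Positions are 1-based. The values of 1 list gene are not reported here, although the list counts include it.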

Additional observations from a re-analysis of the deposited data

Results flagged for a closer look

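For 6 of the 9 tested members the lymph node shift had opposite signs in the 2 mice, as it had for 51.9% of all tested genes. With 1 pair of lines per mouse the difference between the mice was not tested. Tgfb1 shifted by -0.45 in AOC3-LN and 0.13 in AOC11-LN. Tgfb3 shifted by -0.27 and 1.46 in the same order. The shifts of Inhba were 0.36 and -0.48. For the Smads on chromosome 18 they were 0.20 and -0.51 for Smad2, 0.0929 and -0.59 for Smad4, and 0.11 and -0.28 for Smad7.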

How the results depend on the processing

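Among the members, 1 difference changed direction. Tgfb3 between the mice went from -0.32 to 0.38 without AOC11-LN, with the filter set on all lines, an alternative chosen after seeing the data. Without that line Tgfb3 is below the filter. The 3 members called between the mice became 5 at a 1.5-fold threshold. They were between 1 (without AOC3) and 6 (without AOC11, with Tgfb3 lower) when a line was left out. The 13 pathway genes called became 22 at 1.5-fold. How many of all tested genes passed 1.5-fold was not counted. The 1 member called in AOC11-LN became 0 with a filter at 5 FPKM, which removes Tgfb3, and 2 at 1.5-fold. Members with a limma adjusted p under 0.05 were 0, and 1 (Inhba) among protein-coding genes alone. The limma adjusted p of Inhba ranged from 0.0415 to 0.567 over the alternatives. Over all genes limma called 29 between the mice, and 0 with no filter, 50 at 5 FPKM, 256 among protein-coding genes and 0 to 4 with a line left out. Origin as a block gave 31. Where a mouse was left with 1 line, that line was assumed to vary like the lines of the other mouse.

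No paired analysis by replicate number was possible because each line is 1 library. Levels near 0, such as Tgfb2 and Tgfb3, rest on few fragments, and each mouse is 1 animal.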
